A study of Mus musculus with 10 samples.

Results

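The genes described are those of the laminin chains, the proteins that link laminin into basement membranes, and the integrin subunits that bind these and other matrix proteins. A probe set, the group of array probes that reports a transcript, was taken as a member when its platform gene symbol was Lama, Lamb or Lamc plus a digit, Itga plus digits (with or without b), Itgb plus a digit, Nid1, Nid2, Hspg2, Agrn or Itgav. This gave 33 genes of the 19505 named on the array, 14 ligand chains and linkers and 19 receptor subunits, each with a single probe set. Itga1 and Itga10 were not analysed here. Wolffian ducts, the embryonic tubes that form the epididymis and vas deferens, were taken from mouse embryos of 16.5 days post-coitum and cultured for 72 h at an air-liquid interface, and RNA was read on Affymetrix arrays. Titles of the samples name the tissue pronephros. The 3 cultures called vehicle received culture medium per the labels, which do not say whether it held the compounds' solvent, the 4 SAG cultures 0.5 µM of this Smoothened agonist, which activates hedgehog signalling, and the 3 cyclopamine cultures 25 µM of this Smoothened inhibitor. No strain, genotype or sex is given in the labels, and a whole explant holds duct epithelium and the stroma around it, so that fewer cells of a type and less RNA per cell cannot be told apart in any value below.

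Basement membranes are sheets of matrix that separate an epithelium from its stroma and also wrap muscle, nerve and vessel cells. A laminin molecule is a trimer of an α, a β and a γ chain that assembles into a network at the cell surface, and nidogens and the proteoglycans perlecan (Hspg2) and agrin (Agrn) tie that network to type IV collagen and to heparan sulphate-binding proteins. Integrins are dimers of an α and a β subunit that hold cells to the matrix and connect it to actin or, in hemidesmosomes, to keratin. In the developing urogenital tract, laminin and its receptors are known for their part in epithelial polarity and tubule growth, and hedgehog ligands from epithelium act on the cells of the stroma.

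The response genes Gli1, Ptch1 and Hhip were all higher with SAG and all lower with cyclopamine (for Hhip by 4.55 ± 0.33 (SE) and -5.95 ± 0.35 on the log2 scale), and their groups did not overlap. The SAG call of Gli1 (limma adjusted p = 0.0374) was lost with 7 of the 10 arrays removed in turn, up to 0.204, and those of Ptch1 and Hhip with none. All 15 measured duct epithelium markers had a mean above 5.19, below which the dimmest 25% of probe sets lie. Array medians lay between 7.55 and 7.70, and cyclopamine replicate 2 stood apart from the other cyclopamine arrays on the second principal component of all probe sets (-51.7 against 13.0 and 13.6), so results are also given without it where they move. The series text calls the arrays biological replicates without tying them to litters. The p-values thus set differences between groups against the spread between these cultures, and precision is limited by how few arrays there are.

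With cyclopamine, 7 of the 33 members changed against vehicle: the laminin chain genes Lama2 and Lamc3, the nidogen gene Nid1 and the integrin subunit genes Itga4 and Itgb3 fell, and the integrin subunit genes Itga3 and Itgb2 rose (limma, Benjamini-Hochberg adjusted p below 0.05 over all probe sets). This was 21.2% of the members, where 5.12% of all 22206 probe sets changed, 2.17% upward and 2.95% downward. The cyclopamine and vehicle arrays did not overlap in 13 members (39.4%) and in 23.1% of all probe sets. With SAG, 0 of the 33 passed, where 0.73% of all probe sets did, and 7 members (21.2%) had an unadjusted p below 0.05 against 10.8% of all probe sets. The SAG and vehicle arrays did not overlap in 3 members (9.09%), a smaller share than the 12.9% of all probe sets. Between SAG and cyclopamine, 12 members differed (36.4%, against 11.3% of all probe sets), 8 higher and 4 lower with SAG, where 5.42% of all probe sets were higher and 5.92% lower. An unadjusted p below 0.05 was found there for 20 members (60.6%) and for 23.4% of all probe sets. The SAG and cyclopamine arrays did not overlap in 17 members (51.5%) and in 21.2% of all probe sets. Without cyclopamine replicate 2 these counts were 10 of 33 for cyclopamine, 2 for SAG and 15 for SAG against cyclopamine, and the shares of all probe sets 6.62%, 1.53% and 12.9%. Both comparisons with vehicle use the same 3 vehicle arrays.

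**Figure D1:**
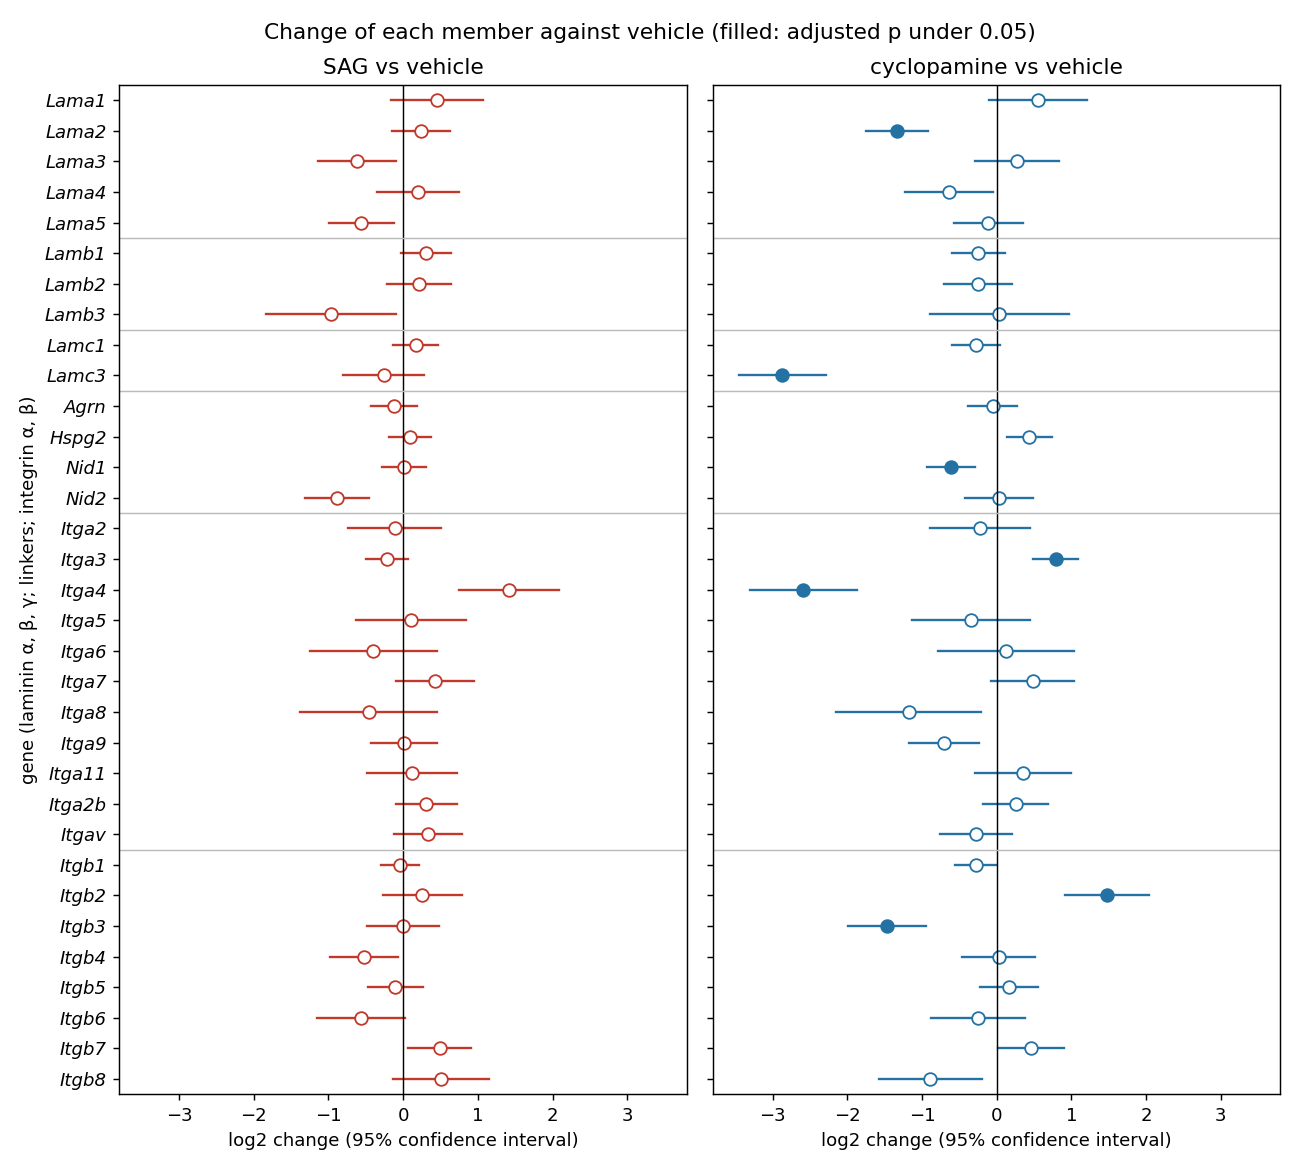
Log2 change of each of the 33 members against vehicle (points) with its 95% confidence interval (lines), for SAG (left) and cyclopamine (right), grouped into laminin α, β and γ chains, linkers and integrin α and β subunits. Filled points passed at an adjusted p below 0.05: 0 with SAG and 7 with cyclopamine, where Lamc3 and Itga4 lie farthest to the left and Itgb2 farthest to the right.

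Of the 7 genes that changed with cyclopamine, 4 had an entry in a RefSeq promoter table (22 of the 33 members had one). The 250 bases before the annotated start of these 4 genes are shown because these genes changed when hedgehog signalling was inhibited, and the GLI proteins are the DNA-binding factors of that pathway. Coordinates are of GRCm38.p6, sequences run 5′ to 3′ on the strand of the gene, and for Itga3 the first of 2 entries is given. Capitals mark a match to the core of the GLI site (CCACCCA) or to the CArG box, the site of serum response factor. The first lies on chr2:79255176-79255425 (plus strand), the second on chr10:27616943-27617192 (minus), the third on chr13:13437352-13437601 (plus) and the fourth on chr11:95076715-95076964 (minus).
Itga4: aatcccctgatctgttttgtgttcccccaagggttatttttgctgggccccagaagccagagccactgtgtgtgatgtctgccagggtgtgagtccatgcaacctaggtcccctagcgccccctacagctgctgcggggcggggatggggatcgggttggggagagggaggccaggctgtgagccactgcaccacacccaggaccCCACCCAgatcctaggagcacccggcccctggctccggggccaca
Lama2: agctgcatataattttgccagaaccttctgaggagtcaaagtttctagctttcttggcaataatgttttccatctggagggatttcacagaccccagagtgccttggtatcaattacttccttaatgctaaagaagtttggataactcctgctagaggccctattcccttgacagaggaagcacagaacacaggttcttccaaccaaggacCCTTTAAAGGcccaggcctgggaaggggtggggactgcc
Nid1: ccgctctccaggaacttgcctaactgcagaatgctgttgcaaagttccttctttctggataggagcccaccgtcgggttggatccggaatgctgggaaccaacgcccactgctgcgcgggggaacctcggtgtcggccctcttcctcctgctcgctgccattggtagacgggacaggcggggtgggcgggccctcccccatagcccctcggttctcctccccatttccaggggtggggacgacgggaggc
Itga3: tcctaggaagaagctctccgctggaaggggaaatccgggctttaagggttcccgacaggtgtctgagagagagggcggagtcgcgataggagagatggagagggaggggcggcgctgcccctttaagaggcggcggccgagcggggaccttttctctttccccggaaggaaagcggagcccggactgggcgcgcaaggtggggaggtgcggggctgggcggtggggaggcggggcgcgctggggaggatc

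Both strands of the window were searched in all 32851 entries of the table, with motifs chosen after the changes were known. The 7-base GLI core was in 8.11% of all entries and in 3 of 26 member entries, those of Agrn, Itga2 and Itga4, where it ends 39 bases before the start of Itga4. The longer GLI site GACCACCCA, which contains the core, was in 0.225% of all entries and in 0 of 26 member entries. The CArG box was in 1.47% of all entries and in 2 of 26, those of Itgb6 and Lama2, ending 30 bases before the start of Lama2. A match describes letters only.

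Among the laminin α chains, Lama2, the chain of muscle and nerve basement membranes, fell with cyclopamine. Its log2 signal was 13.40, 13.52 and 13.35 on the vehicle arrays, 13.73, 13.73, 13.79 and 13.42 on the SAG arrays and 11.92, 12.53 and 11.83 on the cyclopamine arrays. All cyclopamine arrays lay below all others, while SAG and vehicle overlapped. The fall was 2.52-fold (-1.34 ± 0.19, limma adjusted p = 0.00397), and the signal was 2.97-fold higher with SAG than with cyclopamine (1.57 ± 0.18, limma adjusted p = 0.000277). The change with SAG against vehicle was 0.24 ± 0.18 (limma adjusted p = 0.689).

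Lama4, the chain of vessel and many mesenchymal basement membranes, had 12.95, 12.86 and 12.53 with vehicle, 13.22, 12.92, 12.65 and 13.11 with SAG, and 12.04, 12.75 and 11.62 with cyclopamine. The value of cyclopamine replicate 2 lay within the vehicle range and the other cyclopamine values below it. The change with cyclopamine was -0.64 ± 0.27 and did not pass (limma adjusted p = 0.222). Without cyclopamine replicate 2 it was -0.95 ± 0.22 (limma adjusted p = 0.0290), and the difference between SAG and cyclopamine went from 0.84 ± 0.25 (limma adjusted p = 0.0542) to 1.15 ± 0.20 (0.00450). That difference also passed with median centring, without the dimmest probe sets, with an intensity-dependent prior and with array weights (down to an adjusted p of 0.0273).

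The chains typical of epithelium gave other values. Lama1, the chain of early embryonic and nephric epithelia, had 10.31, 10.37 and 10.61 with vehicle, 11.26, 10.98, 10.72 and 10.58 with SAG, and 11.59, 10.25 and 11.12 with cyclopamine. Its changes of 0.45 ± 0.28 with SAG and 0.55 ± 0.30 with cyclopamine did not pass (limma adjusted p = 0.616 and 0.354). Without cyclopamine replicate 2, the array with the lowest Lama1 value of all, the rise with cyclopamine was 0.92 ± 0.23 (limma adjusted p = 0.0402).

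Lama3, the chain of laminins bound by hemidesmosomes, was at 6.53, 7.43 and 6.98 with vehicle, 6.50, 6.24, 6.44 and 6.26 with SAG, and 7.74, 7.19 and 6.84 with cyclopamine. All SAG values lay below all vehicle and all cyclopamine values. It was lower with SAG than with cyclopamine (-0.90 ± 0.24, 1.86-fold, limma adjusted p = 0.0342), while -0.62 ± 0.24 for SAG against vehicle did not pass (0.363). It lost its call when any SAG array or cyclopamine replicate 1 or 2 was left out (adjusted p 0.0516 to 0.130). Lama5, the main α chain of mature epithelia, had 6.72, 6.90 and 6.05 with vehicle, 6.04, 6.12, 6.06 and 5.76 with SAG, and 6.50, 6.26 and 6.56 with cyclopamine. Its changes did not pass, with -0.56 ± 0.20 for SAG (limma adjusted p = 0.304) and -0.11 ± 0.21 for cyclopamine (0.833).

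Lamc3, a γ chain with a narrow tissue distribution, showed the widest fall of the members with cyclopamine. Its log2 signal was 10.44, 10.35 and 9.98 with vehicle, 9.74, 10.40, 10.09 and 9.75 with SAG, and 7.93, 6.94 and 7.30 with cyclopamine. All cyclopamine arrays lay below all others, and vehicle and SAG overlapped. The fall was 7.30-fold (-2.87 ± 0.26, limma adjusted p = 0.000282), and SAG was 6.09-fold above cyclopamine (2.61 ± 0.24, limma adjusted p = 9.41e-05). Against vehicle, SAG was at -0.26 ± 0.24 (limma adjusted p = 0.761). Both calls passed in all 18 alternatives.

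Lamc1, the γ chain of most laminins, differed less. It had 12.57, 12.77 and 12.69 with vehicle, 12.92, 12.79, 12.74 and 12.93 with SAG, and 12.59, 12.49 and 12.13 with cyclopamine. SAG lay above cyclopamine on every array, by 0.44 ± 0.14, which did not pass (limma adjusted p = 0.0669). It passed with each array centred on its median or with an intensity-dependent prior variance, down to an adjusted p of 0.0403.

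Among the β chains, Lamb1, the partner of Lamc1 in most embryonic laminins, had 13.83, 13.85 and 13.85 with vehicle, 14.42, 14.11, 13.84 and 14.21 with SAG, and 13.72, 13.38 and 13.69 with cyclopamine. The vehicle arrays were nearly equal, and SAG replicate 3 lay among them. SAG was 1.46-fold above cyclopamine (0.55 ± 0.15, limma adjusted p = 0.0415). That call ended when any array but SAG replicate 3 was left out (adjusted p 0.0600 to 0.119). Changes against vehicle were 0.31 ± 0.15 with SAG (limma adjusted p = 0.513) and -0.24 ± 0.16 with cyclopamine (0.468).

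Lamb2, a β chain of muscle, nerve and vessel membranes, and Lamb3, the β chain of hemidesmosome laminins, did not pass in any comparison. Lamb2 was at 0.46 ± 0.19 for SAG against cyclopamine (limma adjusted p = 0.180) and, without cyclopamine replicate 2, at 0.73 ± 0.13 (0.00556). That array had 11.79, the highest Lamb2 value of the 10 arrays, against 10.964 and 10.996 on the other cyclopamine arrays. Lamb3 was at -0.96 ± 0.39 with SAG against vehicle (limma adjusted p = 0.398) and 0.03 ± 0.42 with cyclopamine (0.979).

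The nidogen genes differed in which group stood apart, cyclopamine for Nid1 and SAG for Nid2. Nid1, the more widely made of the pair, had 14.40, 14.31 and 14.44 with vehicle, 14.38, 14.55, 14.46 and 14.20 with SAG, and 13.84, 13.93 and 13.55 with cyclopamine. Every cyclopamine array lay below every other array. Nid1 fell 1.53-fold with cyclopamine (-0.61 ± 0.14, limma adjusted p = 0.0379) and was 0.62 ± 0.13 higher with SAG than with cyclopamine (0.0128), while SAG against vehicle was 0.01 ± 0.13 (0.988). The fall against vehicle held only with SAG replicate 4 or cyclopamine replicate 2 left out, and with any other array left out its adjusted p was 0.0501 to 0.112. The difference between SAG and cyclopamine was at 0.0540 without cyclopamine replicate 3.

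Nid2, a nidogen of more restricted basement membranes, had 11.54, 11.16 and 11.79 with vehicle, 10.37, 10.90, 10.59 and 10.58 with SAG, and 11.69, 11.20 and 11.69 with cyclopamine. All SAG values lay below all others, and the vehicle and cyclopamine arrays overlapped (0.03 ± 0.21, limma adjusted p = 0.959). Nid2 was 1.89-fold lower with SAG than with cyclopamine (-0.92 ± 0.19, limma adjusted p = 0.0107). Against vehicle the SAG change of -0.89 ± 0.19 did not pass (limma adjusted p = 0.0768) and passed without cyclopamine replicate 2 (0.0380) and with array weights (0.0457), an array that bears on this comparison through the pooled variance alone. The proteoglycan genes did not pass: perlecan (Hspg2) was at 0.44 ± 0.14 with cyclopamine (limma adjusted p = 0.102), with all 3 cyclopamine arrays above the vehicle arrays, and agrin (Agrn) at -0.05 ± 0.15 (0.892).

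**Figure D2:**
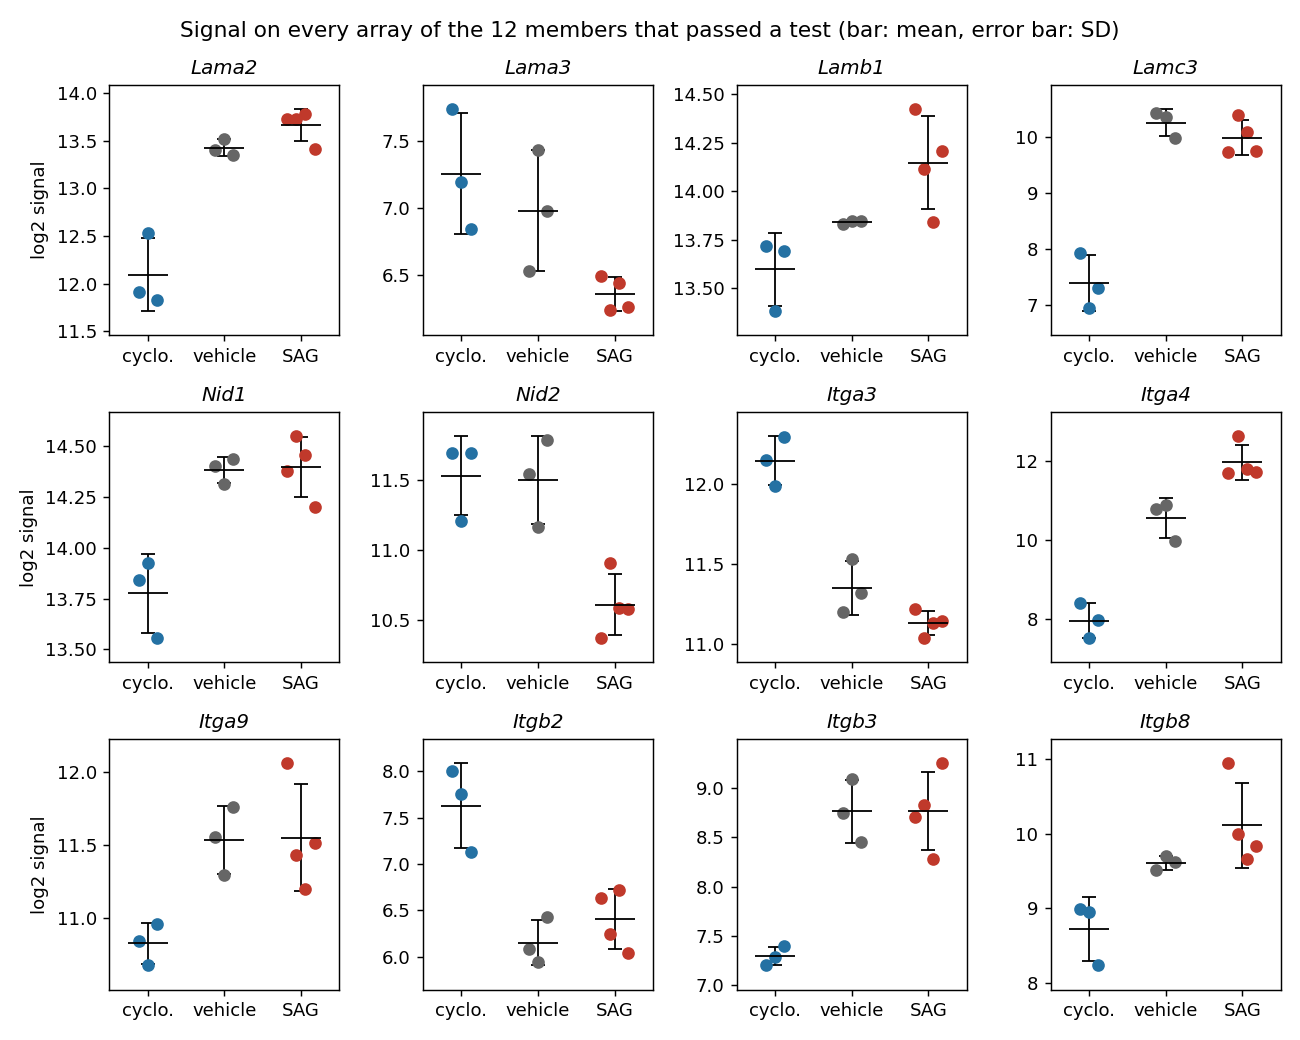
Log2 signal on each of the 10 arrays (points) for the 12 members that passed in at least 1 comparison, with the mean (bar) and SD (error bar) of cyclopamine (n = 3), vehicle (n = 3) and SAG (n = 4). Each panel has its own axis range. For Lamc3, Lama2, Itgb3 and Nid1 the cyclopamine points lie apart from vehicle and SAG, which overlap, while Itga4 steps up from cyclopamine to vehicle to SAG.

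Among the integrin α subunits, Itga4 had the widest range over the 10 arrays of all members. It encodes the α4 subunit, which binds fibronectin and the vascular adhesion protein VCAM1 rather than laminin. Its log2 signal was 10.79, 10.90 and 9.97 with vehicle, 11.70, 12.63, 11.81 and 11.74 with SAG, and 8.40, 7.52 and 7.98 with cyclopamine. The groups did not overlap, with cyclopamine lowest and SAG highest. Itga4 fell 6.02-fold with cyclopamine (-2.59 ± 0.32, limma adjusted p = 0.00206) and was 16.1-fold higher with SAG than with cyclopamine (4.00 ± 0.30, limma adjusted p = 2.31e-05), and both calls passed in all 18 alternatives. The change with SAG against vehicle was 1.42 ± 0.30, 2.67-fold, and did not pass (limma adjusted p = 0.0717). It passed without cyclopamine replicate 2 (0.0411), with array weights (0.0341) and with each array centred on its median.

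Itga9, the α subunit nearest to Itga4 in sequence family and a receptor for tenascin and related ligands, differed less. It had 11.55, 11.29 and 11.76 with vehicle, 12.06, 11.43, 11.20 and 11.51 with SAG, and 10.85, 10.68 and 10.96 with cyclopamine. All cyclopamine arrays lay below all others. SAG was 1.65-fold above cyclopamine (0.72 ± 0.20, limma adjusted p = 0.0405), and the change of -0.71 ± 0.21 with cyclopamine against vehicle did not pass (0.0914). The first call was lost with any cyclopamine array, vehicle replicate 1 or SAG replicate 1, 2 or 4 removed (adjusted p 0.0606 to 0.102). The change against vehicle passed without SAG replicate 1 (0.0387).

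Of the laminin-binding α subunits, Itga3, which pairs with Itgb1 in epithelia, rose with cyclopamine. It had 11.20, 11.53 and 11.32 with vehicle, 11.22, 11.04, 11.13 and 11.15 with SAG, and 12.15, 11.99 and 12.29 with cyclopamine. Every cyclopamine array lay above every other array. The rise was 1.73-fold (0.79 ± 0.14, limma adjusted p = 0.00962), and the signal with SAG was 2.01-fold below that with cyclopamine (-1.01 ± 0.13, limma adjusted p = 0.000584). The rise was at an adjusted p of 0.0516 with only the vehicle and cyclopamine arrays in the fit. SAG against vehicle was at -0.22 ± 0.13 (0.597).

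Itga6, the α subunit of both the Itgb1 and the Itgb4 laminin receptors, varied widely between the cyclopamine arrays. It had 12.59, 12.34 and 11.91 with vehicle, 12.03, 11.39, 11.96 and 12.15 with SAG, and 13.15, 11.28 and 12.78 with cyclopamine. Cyclopamine replicate 2 held the lowest value of all 10 arrays and the other cyclopamine arrays the highest. The difference between SAG and cyclopamine was -0.52 ± 0.39 (limma adjusted p = 0.477) with that array and -1.08 ± 0.25 (0.0180) without it. Against vehicle, cyclopamine was at 0.12 ± 0.41 (limma adjusted p = 0.915) with it and 0.68 ± 0.26 (0.182) without it. Itga7, the laminin-binding subunit of muscle, was near the lower end of the scale (6.08 over all arrays) and did not pass, at 0.48 ± 0.25 with cyclopamine (0.341).

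Itga8, a stromal receptor subunit for nephronectin in the developing kidney, followed the same split. It had 9.86, 10.86 and 9.93 with vehicle, 9.49, 9.95, 9.55 and 10.01 with SAG, and 8.43, 10.22 and 8.45 with cyclopamine. Cyclopamine replicate 2 lay within the vehicle range, and the other cyclopamine arrays lay below every other array. The change with cyclopamine was -1.18 ± 0.44 (limma adjusted p = 0.174), and without cyclopamine replicate 2 it was a fall of -1.77 ± 0.29 (0.00703). The difference between SAG and cyclopamine went from 0.72 ± 0.41 (limma adjusted p = 0.341) to 1.31 ± 0.28 (0.0110). Npnt, the nephronectin gene, had a mean of 13.4 with vehicle, 12.3 with SAG and 14.5 with cyclopamine and was lower with SAG than with cyclopamine (-2.17 ± 0.29, limma adjusted p = 0.000779).

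The other α subunits, Itga2 and Itga11 of the collagen receptors, Itga5 and Itgav of the receptors for fibronectin and other RGD ligands, and Itga2b of the platelet fibrinogen receptor, did not pass in any comparison. Against vehicle their changes ran from -0.11 (Itga2) to 0.33 (Itgav) with SAG and from -0.34 (Itga5) to 0.36 (Itga11) with cyclopamine. Without cyclopamine replicate 2, which had the highest Itga5 value (10.07), Itga5 was higher with SAG than with cyclopamine (0.92 ± 0.22, limma adjusted p = 0.0221), against 0.45 ± 0.33 (0.485) with it.

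The common β subunit Itgb1, which pairs with most α subunits here, stayed within a narrow range. It had 15.75, 15.67 and 15.52 with vehicle, 15.50, 15.59, 15.61 and 15.73 with SAG, and 15.44, 15.33 and 15.32 with cyclopamine. All cyclopamine arrays lay below all others, but the change of -0.28 ± 0.12 did not pass (limma adjusted p = 0.253). Its 95% confidence interval was -0.55 to -0.01, and that of SAG against vehicle -0.30 to 0.21.

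Itgb3, the β subunit of the vitronectin and platelet fibrinogen receptors, fell with cyclopamine. It had 8.75, 9.09 and 8.45 with vehicle, 8.71, 8.82, 8.28 and 9.25 with SAG, and 7.21, 7.29 and 7.39 with cyclopamine. The cyclopamine arrays lay close together and below all others. The fall was 2.77-fold (-1.47 ± 0.23, limma adjusted p = 0.00628), SAG was 2.77-fold above cyclopamine (1.47 ± 0.22, limma adjusted p = 0.00146), and SAG against vehicle was at 0.00 ± 0.22 (0.999). Both calls passed in all 18 alternatives. Its possible α partners did not pass against vehicle, with Itgav at -0.28 ± 0.22 and Itga2b at 0.26 ± 0.20 with cyclopamine.

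Itgb8, a β subunit that pairs with Itgav and activates latent TGF-beta, had 9.51, 9.70 and 9.62 with vehicle, 10.943, 9.9991, 9.66 and 9.84 with SAG, and 8.98, 8.95 and 8.23 with cyclopamine. All cyclopamine arrays lay below all others, and SAG replicate 1 lay highest. SAG was 2.62-fold above cyclopamine (1.39 ± 0.29, limma adjusted p = 0.0102). The change of -0.89 ± 0.31 against vehicle did not pass (limma adjusted p = 0.145) but did without SAG replicate 1 (0.0407). Tgfb3, a ligand gene of that system, rose with SAG (1.01 ± 0.14, limma adjusted p = 0.0120) and fell with cyclopamine (-1.13 ± 0.15, limma adjusted p = 0.00321). The rise was lost without vehicle replicate 2 or 3 (highest adjusted p 0.0769).

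The epithelial β subunits did not pass. Itgb4, which joins Itga6 in hemidesmosomes, had 7.37, 6.89 and 6.70 with vehicle, 6.16, 6.78, 6.48 and 6.45 with SAG, and 7.31, 6.72 and 7.01 with cyclopamine, and its changes were -0.52 ± 0.21 with SAG (limma adjusted p = 0.383) and 0.03 ± 0.22 with cyclopamine (0.969). Itgb6, an epithelial partner of Itgav, was at -0.56 ± 0.27 with SAG (limma adjusted p = 0.488). Of the remaining β subunits, Itgb7 was at 0.49 ± 0.19 with SAG and 0.46 ± 0.20 with cyclopamine, and Itgb5 at 0.16 ± 0.18 with cyclopamine. Without cyclopamine replicate 2, Itgb5 was lower with SAG than with cyclopamine (-0.48 ± 0.14, limma adjusted p = 0.0473). Of 5 measured hemidesmosome genes outside the integrins, 0 passed in any of the 3 comparisons, with Krt5 nearest (unadjusted p = 0.0198 for cyclopamine against vehicle). At an unadjusted p below 0.05, 1 did with SAG, 1 with cyclopamine and 2 between the compounds, where 10.8%, 18.9% and 23.4% of all probe sets did.

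Itgb2, the β subunit that leukocytes pair with their own α subunits, rose with cyclopamine. It had 6.08, 5.95 and 6.43 with vehicle, 6.63, 6.25, 6.72 and 6.04 with SAG, and 8.01, 7.76 and 7.13 with cyclopamine. All cyclopamine arrays lay above all others. The rise was 2.79-fold (1.48 ± 0.25, limma adjusted p = 0.00895), from a vehicle signal near the lower end of the scale. SAG was below cyclopamine by 1.22 ± 0.24 (limma adjusted p = 0.00703), and both calls passed in all 18 alternatives. Among 5 leukocyte α subunit genes outside the members, Itgam, the macrophage and neutrophil partner of Itgb2, rose with cyclopamine (2.70 ± 0.64, limma adjusted p = 0.0369), with 8.31, 8.03 and 9.38 on the vehicle and 11.98, 12.08 and 9.76 on the cyclopamine arrays. On the SAG arrays Itgam had 10.65, 8.98, 9.50 and 8.96, which overlapped both other groups. The Itgam call against vehicle held only with vehicle replicate 3, SAG replicate 1 or cyclopamine replicate 3 removed. It was lost with any other array removed (highest adjusted p 0.129). Itgal, the lymphocyte partner, was at -0.36 ± 0.17 (0.272).

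Of 12 measured macrophage and leukocyte markers, Fcer1g rose with cyclopamine (1.41 ± 0.28, limma adjusted p = 0.0167), 0 fell and 11 did not pass. The Fcer1g call was lost with vehicle replicate 2 or 3 removed (highest adjusted p 0.0650), and with single arrays removed the count of changed markers ran from 0 to 4, the 4 without SAG replicate 1. Against SAG, Fcer1g and Tyrobp were higher with cyclopamine and Aif1 and Cx3cr1 lower. The Tyrobp and Cx3cr1 calls each ended with 8 of the 10 arrays left out in turn (highest adjusted p 0.143 and 0.107), and that of Aif1 ended without cyclopamine replicate 2 or 3 (0.0657). The log2 of the summed marker signal was 15.0 to 15.6 with vehicle, 14.6 to 16.3 with SAG and 16.1 to 17.1 with cyclopamine, and 0 of the 12 had a mean among the dimmest 25% of probe sets. That sum is carried by the brightest genes, such as Lyz2. The mean log2 signal of the 12 overlapped, at 10.24 to 10.65 with vehicle, 10.09 to 10.84 with SAG and 9.97 to 11.42 with cyclopamine. With cyclopamine 6 of the 12 changes were positive, and their median was 0.18. The part of these cells in the rise of Itgb2 was not tested.

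Ligand chains and receptor subunits were set side by side as a description. With cyclopamine, 3 of 14 ligand genes fell and 0 rose (21.4% changed), and of 19 receptor genes 2 fell and 2 rose (21.1%), where 5.12% of all probe sets changed. With cyclopamine replicate 2 removed, 4 ligand genes fell and Lama1 rose (35.7%), and 3 receptor genes fell and 2 rose (26.3%). With any other array but SAG replicate 4 removed, 2 ligand genes fell, and with SAG replicate 1 removed 4 receptor genes fell. Their median log2 changes were -0.18 and -0.22, beside 0.02 for all probe sets. Between SAG and cyclopamine, 4 ligand genes were higher and 2 lower with SAG (42.9%), as were 4 and 2 receptor genes (31.6%), where 11.3% of all probe sets differed. With cyclopamine replicate 2 removed, 5 ligand genes were higher and 1 lower (42.9%), and 5 receptor genes higher and 4 lower (47.4%), so the order of these shares turned. Whether ligand and receptor genes differ was not tested. With SAG against vehicle the medians were 0.05 and 0.02, beside 0.01 for all probe sets. On single arrays, the median ligand deviation from the vehicle means was -0.11, -0.18 and -0.30 with cyclopamine, and that of the receptors -0.01, -0.02 and -0.20. On the vehicle and SAG arrays it lay between -0.04 and 0.12 for ligands and between -0.07 and 0.06 for receptors.

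**Figure D3:**
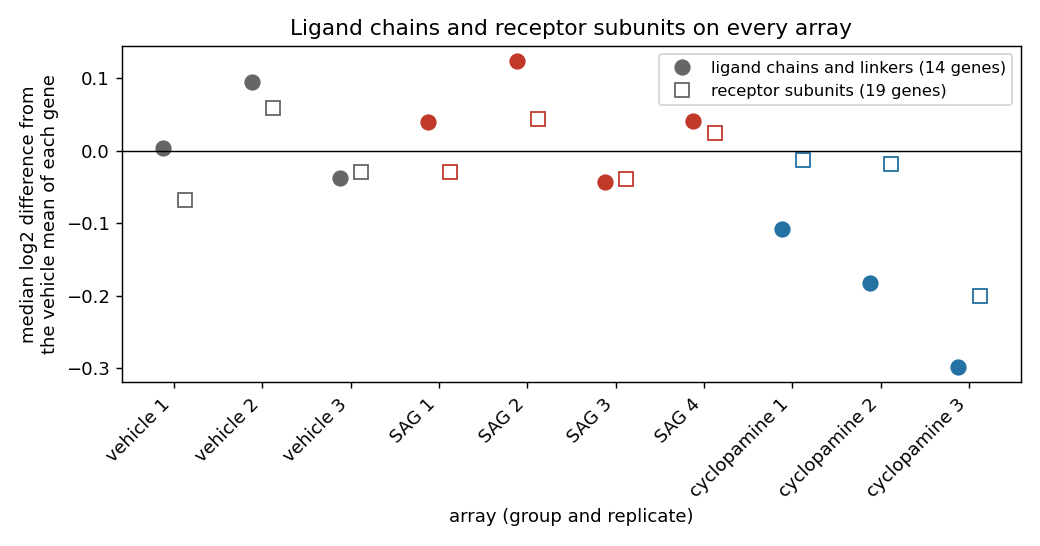
Median, on each of the 10 arrays, of the log2 differences of 14 ligand genes (filled circles) and 19 receptor genes (open squares) from each gene's vehicle mean, in grey for vehicle, red for SAG and blue for cyclopamine. The ligand medians on the cyclopamine arrays (-0.11, -0.18 and -0.30) lie below those of all other arrays, and the receptor medians of cyclopamine replicates 1 and 2 (-0.01 and -0.02) lie among them.

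Markers of tissue compartments moved with the compounds as well. Of 15 duct epithelium markers, 7 rose with cyclopamine (12 without cyclopamine replicate 2, 3 without vehicle replicate 1 or 3, and 4 without SAG replicate 3 or 4 or cyclopamine replicate 1 or 3), and the log2 of their summed signal was 15.7 to 16.7 with vehicle, 14.8 to 15.4 with SAG and 17.4 to 18.0 with cyclopamine. Of 12 smooth muscle markers, 9 fell with cyclopamine (17.7 to 17.9 with vehicle, 17.5 to 17.8 with SAG, 15.5 to 16.1 with cyclopamine), and of 12 mesenchyme and fibroblast markers 7 fell (19.2 to 19.3, 19.3 to 19.5 and 18.5 to 18.6). Of 11 endothelium markers Kdr fell, a call lost with any vehicle array or cyclopamine replicate 1 or 3 removed (highest adjusted p 0.103), and 10 did not pass (13.8 to 14.7, 14.9 to 15.3 and 12.8 to 13.9). None of the markers in these lists had a mean among the dimmest 25% of probe sets. The part of these compartments in the changes of Lama2, Lamc3, Nid1, Itga3, Itga4 and Itgb3 was not tested.

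**Figure D4:**
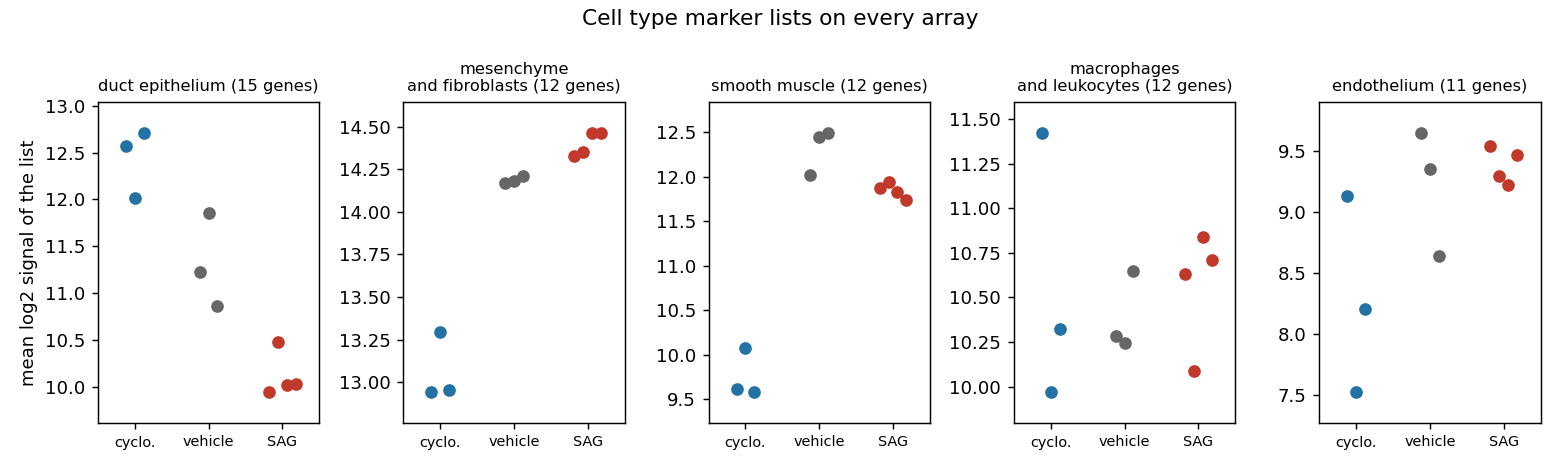
Mean log2 signal of 5 marker lists on each of the 10 arrays, by group, each panel with its own axis range. Duct epithelium markers are highest and smooth muscle and mesenchyme markers lowest on the cyclopamine arrays, and macrophage and leukocyte markers overlap between the groups.

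Other basement membrane genes from a list of 25 measured fell with cyclopamine in 8 cases and rose in 1 (5 and 0 without vehicle replicate 3). Beside the counts of this and the other lists, 2.95% of all probe sets fell with cyclopamine and 2.17% rose. The type IV collagen genes Col4a1 (-1.98 ± 0.18, limma adjusted p = 0.000316) and Col4a2 (-1.79 ± 0.21, 0.00172), whose products form the network that nidogens bridge to laminin, were among those that fell, as were Smoc2, a matricellular protein (-2.25 ± 0.25, 0.00105), and Frem1, a protein of the epithelial basement membrane (-1.51 ± 0.20, 0.00290). For Col4a1 the cyclopamine arrays were at 8.97, 8.23 and 8.28, below 10.42 to 10.49 with vehicle and 10.90 to 11.02 with SAG. The gene that rose was Frem2 (1.04 ± 0.23, limma adjusted p = 0.0293). That call was lost with vehicle replicate 1 or 3 or cyclopamine replicate 1 or 3 removed (highest adjusted p 0.104). Between SAG and cyclopamine, 6 of the 25 were higher with SAG and 4 lower, where 5.42% and 5.92% of all probe sets were. With SAG 0 of the 25 passed, and 5 fell once cyclopamine replicate 2 was removed and 1 once replicate 3 was. An unadjusted p below 0.05 was found with SAG for 13 of the 25, where 10.8% of all probe sets had one. Of the 25 SAG changes 9 were positive, and the median was -0.20.

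Another list held 9 measured genes of non-integrin laminin receptors and of the dystrophin complex of muscle. Of these, the sarcoglycan gene Sgcd fell with cyclopamine (-1.05 ± 0.16, limma adjusted p = 0.00610). Sgce, also a sarcoglycan gene, fell (-0.48 ± 0.12, 0.0479) until any single array was left out. Dag1, dystroglycan, the main non-integrin laminin receptor, was at 0.20 ± 0.15 and did not pass (0.527). Of 19 other integrin ligand genes, 7 fell with cyclopamine, among them Tgfb3, Ccn1 (-1.43 ± 0.24, 0.00744), the periostin gene Postn (-2.04 ± 0.37, 0.0108) and fibronectin, Fn1 (-0.64 ± 0.14, 0.0289), a ligand of α4, α5 and αV integrins. The count was 3 without vehicle replicate 2 or 3 or cyclopamine replicate 3 and 4 without vehicle replicate 1 or cyclopamine replicate 1, and the Fn1 call was lost with vehicle replicate 2 or 3 or cyclopamine replicate 1 or 3 removed (highest adjusted p 0.0990). Postn is also one of the mesenchyme markers.

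Inside the cell, integrin tails bind talin, kindlins and a complex of Ilk, Lims and parvin proteins. Of 25 such adaptor genes, Lims1 (-0.76 ± 0.12, limma adjusted p = 0.00653), the kindlin gene Fermt2 (-0.93 ± 0.20, 0.0236) and Parva (-0.76 ± 0.19, 0.0484) fell with cyclopamine and Pxn, paxillin, rose (0.68 ± 0.16, 0.0371). Of these 4, only the Lims1 call held with each array left out in turn. The calls of Fermt2, Pxn and Parva were lost with any vehicle array or cyclopamine replicate 1 or 3 removed, and those of Pxn and Parva also without SAG replicate 2, 3 or 4 (highest adjusted p 0.0831, 0.114 and 0.133). With SAG 0 of the 25 passed by limma, and 1 had an unadjusted p below 0.05, where 10.8% of all probe sets did.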

How the data were processed

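The RNA of 10 cultures was hybridised to Affymetrix arrays, with 100 ng labelled and an integrity number of at least 7, per the labels' protocols. The authors deposited a log2 signal for each of 22206 probe sets. That the scale is log2 was read from the values (2.95 to 18.7), and array medians lie close together, as after normalization between arrays. Not given in the sources used here are the summarization, the normalization and the build. Signals near the lower end compress fold changes. Platform annotation named 19572 probe sets, and all 33 member symbols matched a RefSeq table.

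A mean per group was fitted to all 10 arrays with limma 3.58.1 in R 4.3.3 (lmFit, eBayes, 7 residual degrees of freedom), two-sided, with p-values adjusted by Benjamini and Hochberg's method over every probe set, a threshold of 0.05 and no filter. Errors are moderated standard errors. The fit was run on 5 simulated data sets with changes set for cyclopamine against vehicle. It recovered 4.18% of changes of 0.5, 46.6% of those of 1 and 91.2% of those of 2 on the log2 scale. A member that did not pass may thus have changed by such an amount. Each simulated set held 200 changed probe sets, fewer than the 1136 that passed with cyclopamine here, so the recovered shares may differ in these data. Members and lists were chosen with earlier results of these data known. Values on every array are given for members that passed in a comparison and for 10 genes of the families chosen by role (among them Lama1, Lama5, Itga6, Itga8 and Itgb1), and up to 4 genes per related list are named by smallest p. Lama4, Npnt, Itgal, Itgax, Frem2, Dag1 and markers named singly, with the motifs, were chosen after their values were seen. Alternatives were median centring, another quantile normalization, dropping the dimmest 25% of probe sets, a fit of the 2 groups alone, array weights, a prior variance that follows intensity, a replicate block, averaging the probe sets of a gene and leaving out each array, 18 in all. Counts were also taken at a threshold of 0.1.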

Additional observations from a re-analysis of the deposited data

Results flagged for a closer look

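Among the 33 members, 3 had a SAG array set apart from the other 3 SAG arrays by more than Dixon's 95% critical value for 4 values, which chance passes in about 1 group in 20. Itga11 was at 6.03 on SAG replicate 1, against 6.47 to 6.52 on the others. Itga4 was at 12.6 on SAG replicate 2, against 11.7 to 11.8, and the 3 other SAG arrays also lay above all vehicle arrays. Lama2 was at 13.4 on SAG replicate 4, against 13.7 to 13.8.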

How the results depend on the processing

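Of 19 member values that passed, 12 passed in all 18 alternatives, which leave the threshold at 0.05, and 14 with each array left out in turn, and 0 changed sign. Among the 18, averaging the probe sets of a gene left every member's signal as it was, because each has a single probe set, and so tests little. With SAG against vehicle 0 members changed, 1 after median centring (Itga4), 2 with array weights and 2 at a threshold of 0.1, and 0 to 2 with an array left out, the 2 being Itga4 and Nid2. With an array left out it was 6 to 10 for cyclopamine against vehicle (7) and 9 to 15 for SAG against cyclopamine (12). Of 80 values that did not pass, 14 passed in some alternative. Same-numbered arrays of different groups deviated together weakly or not at all (correlations from -0.19 to 0.24), so the numbers were not taken as pairs. With the replicate block the counts were 0, 6 and 8, and Nid1 against vehicle (adjusted p 0.0864) and Nid2, Itga9, Lama3 and Lamb1 between the compounds (0.0553 to 0.139) did not pass. Array signals near the lower quartile (5.19) limit what can be read from Lamb3, Itga7, Lama5 and the fold of Itgb2.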
